A study of Mus musculus with 2 samples.

Results

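The Mir17-92 polycistron is a group of 6 microRNA hairpins, Mir17, Mir18, Mir19a, Mir20a, Mir19b-1 and Mir92-1, that are cut from a single primary transcript on mouse chromosome 14. The members were taken by their GENCODE M21 gene names, and all 6 were found among the 2202 microRNA genes of the deposited tables. Short RNA was sequenced from left cerebral cortex tissue of 2 mice, both female B6CASTF1/J F1 hybrids aged 36 days. No treatment or second tissue is given in the labels, which list the animals as separate biological replicates with separate animal numbers under a single donor code, so the 2 mice form 1 group and there is no condition to compare. The questions addressed here are how much of each hairpin's product was read in cortex, how the 6 products of 1 transcript differ in level, and how far the mice differ.

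A microRNA cluster of this kind is transcribed as a long primary RNA. The Drosha complex cuts each hairpin out of it and Dicer then releases a short duplex, from which usually a single strand, the guide, is loaded into an Argonaute protein. The guide recognises messenger RNAs mainly through its seed, bases 2 to 8 counted from the 5′ end. The Mir17-92 cluster is known from dividing cells and from tumours, where its products repress cell-cycle genes and the cell-death gene Bcl2l11. In the developing cortex it is known from neural progenitors.

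All 6 hairpins lie on the plus strand of mm10 within 836 bases (chromosome 14, 115043671 to 115044506), in exon 2 of the long non-coding host gene Mir17hg (115042879 to 115046727). Mir17 (ENSMUSG00000065508.1) spans 115043671 to 115043754, Mir18 (ENSMUSG00000065403.1) 115043851 to 115043946 and Mir19a (ENSMUSG00000065416.1) 115044000 to 115044081. Mir20a (ENSMUSG00000065442.1) spans 115044157 to 115044263, Mir19b-1 (ENSMUSG00000076256.1) 115044305 to 115044391 and Mir92-1 (ENSMUSG00000076062.1) 115044427 to 115044506. Gaps between neighbouring hairpins run from 35 to 96 bases. The hairpins follow in transcript order, with the guide arm in capitals, because the reads of a gene come from these sequences. They are from RefSeq (GRCm38.p6), where all 6 were found, and each is identical to the M21 transcript of the same gene. The guides of Mir17, Mir18 and Mir20a lie in the 5′ arm and those of Mir19a, Mir19b-1 and Mir92-1 in the 3′ arm.
Mir17: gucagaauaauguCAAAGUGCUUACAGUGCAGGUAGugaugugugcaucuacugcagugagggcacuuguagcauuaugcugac
Mir18: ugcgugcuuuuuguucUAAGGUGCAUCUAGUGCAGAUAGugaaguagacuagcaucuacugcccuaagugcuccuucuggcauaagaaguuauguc
Mir19a: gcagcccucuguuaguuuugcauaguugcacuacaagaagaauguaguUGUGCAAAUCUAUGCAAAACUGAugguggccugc
Mir20a: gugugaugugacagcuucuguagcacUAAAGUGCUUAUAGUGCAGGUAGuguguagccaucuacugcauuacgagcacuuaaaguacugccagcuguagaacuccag
Mir19b-1: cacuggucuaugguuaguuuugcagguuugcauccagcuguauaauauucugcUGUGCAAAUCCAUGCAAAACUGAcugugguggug
Mir92-1: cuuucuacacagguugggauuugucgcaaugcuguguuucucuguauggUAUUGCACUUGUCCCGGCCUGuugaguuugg

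The 6 guides carry 4 seeds. In the lists that follow the seed is in capitals, and other genes with the same seed stand beside the members because they are read against them later. The miR-17 seed is carried by Mir17 and Mir20a and by 5 other genes of RefSeq, of which those with counts are shown.
miR-17-5p (Mir17): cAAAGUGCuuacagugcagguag
miR-20a-5p (Mir20a): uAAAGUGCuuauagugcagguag
miR-93-5p (Mir93): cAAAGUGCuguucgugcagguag
miR-106b-5p (Mir106b): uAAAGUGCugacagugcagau
miR-106a-5p (Mir106a): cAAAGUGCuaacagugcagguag
miR-20b-5p (Mir20b): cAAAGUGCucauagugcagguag
Counted from the 5′ end, with the base of miR-17-5p first, miR-20a-5p differs from miR-17-5p by C1U and C12U, and miR-106a-5p by U10A. The miR-18 seed differs from the miR-17 seed in A4G alone and is carried by Mir18 and Mir18b.
miR-18a-5p (Mir18): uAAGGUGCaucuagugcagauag
miR-18b-5p (Mir18b): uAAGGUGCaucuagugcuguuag
These 2 guides differ by A18U and A20U, the base of miR-18a-5p first. The miR-19 seed is carried by Mir19a, Mir19b-1 and the X-linked copy Mir19b-2, whose guide is the same as that of Mir19b-1.
miR-19a-3p (Mir19a): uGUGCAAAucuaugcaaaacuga
miR-19b-3p (Mir19b-1): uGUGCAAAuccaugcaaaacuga
With the base of miR-19a-3p first, the guides differ by U11C. The miR-92 seed is carried by Mir92-1 and 6 other genes, of which Mir92-2 has the same guide.
miR-92a-3p (Mir92-1): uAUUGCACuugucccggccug
miR-92b-3p (Mir92b): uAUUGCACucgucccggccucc
miR-25-3p (Mir25): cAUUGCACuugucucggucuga
miR-32-5p (Mir32): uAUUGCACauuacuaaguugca
The guide of Mir92b differs from that of Mir92-1 by U10C and G21C over the 21 bases of the shorter guide, the base of miR-92a-3p first.

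Mouse 1 (replicate 1) gave 1930234 and mouse 2 (replicate 2) 1863876 counts on the sense strand of microRNA genes. Levels are sense counts scaled to 1000000 per library (CPM), with means ± SD over both mice (n = 2). The floor, the 3 counts that a count of 0 still allows, lay at 1.55 CPM for mouse 1 and at 1.61 CPM for mouse 2. Floors and intervals cover counting error only, since PCR copies count as reads. The labels number the libraries as separate biological replicates, and their counts differed by more than sampling noise (chi-square per degree of freedom 245 over 722 genes with counts), so they do not read as copies of 1 library. Each animal gave a single library, so that animal and library preparation cannot be told apart. The tissue label was checked on marker microRNAs. The neuron list had 7 of 10 genes at 10 CPM or more in both mice, all but Mir124a-1, Mir124a-2 and Mir124a-3. Its summed level was 194502 and 195168 CPM, most of it from Mir139 (mean 112269 CPM) and Mir132 (mean 47377 CPM). The muscle list summed to 38.3 and 25.8 CPM, most of it from Mir206 (mean 31.8 CPM), with Mir133a-1, Mir133a-2 and Mir1a-1 at 0. The choroid plexus list, with 2 of 4 genes at 10 CPM or more in both mice, summed to 521 and 526 CPM. The liver microRNA gene Mir122 stood at 45.6 and 40.2 CPM. Reads that fit several places entered no gene count. Low counts at genes with copies, such as Mir124a, Mir133a and Mir1a, therefore do not show that their product was absent.

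Together the 6 members gave 2767 counts in mouse 1 and 2558 in mouse 2, a summed level of 1403 ± 43.2 CPM (1433.5 and 1372 CPM). This is 0.143% and 0.137% of all sense counts. Of the 2202 genes, 88 had a higher mean level by themselves than the 6 members had together. The counts are from whole tissue, in which fewer cells of a type and less RNA per cell cannot be told apart. Of the 6 members, 4 reached 10 CPM in both mice (Mir17, Mir92-1, Mir20a and Mir18), beside 13.8% of all genes of the table. Mir19a and Mir19b-1 stayed at or near the floor, although both are cut from the same transcript.

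Mir17, the first hairpin of the cluster and founder of a seed family known to restrain cell-cycle inhibitors, had 1045 counts in mouse 1 and 1168 in mouse 2 (541 and 627 CPM, mean 584 ± 60.3). Mir92-1, the last hairpin, whose guide is known from endothelial cells, had 1217 and 863 counts (630 and 463 CPM, mean 547 ± 118). The values of these 2 genes overlap: Mir92-1 was the higher in mouse 1 and Mir17 in mouse 2, so their order is not resolved. Mir20a, which shares its seed with Mir17, had 433 and 404 counts (224 and 217 CPM, mean 221 ± 5.35) and lay below both in each mouse.

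Mir18 had 71 and 120 counts (36.8 and 64.4 CPM, mean 50.6 ± 19.5), which is below Mir20a and above the miR-19 genes in both mice. Mir19a had 1 and 3 counts (0.518 and 1.61 CPM), at or under the floor of 3 counts. Mir19b-1 had no count in either mouse. Counts on the opposite strand were 0 for each member in both mice, and the unstranded counts equalled the sense counts.

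A microRNA read usually covers the whole guide or its partner strand, so counts were not divided by hairpin length. Divided by it, the order of the means stayed Mir17 (6.95 CPM per base), Mir92-1 (6.83), Mir20a (2.06), Mir18 (0.527) and Mir19a (0.013). In transcript order the levels follow no gradient, since the first and the last hairpin had the most counts, and the third and the fifth had the fewest.

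**Figure D1:**
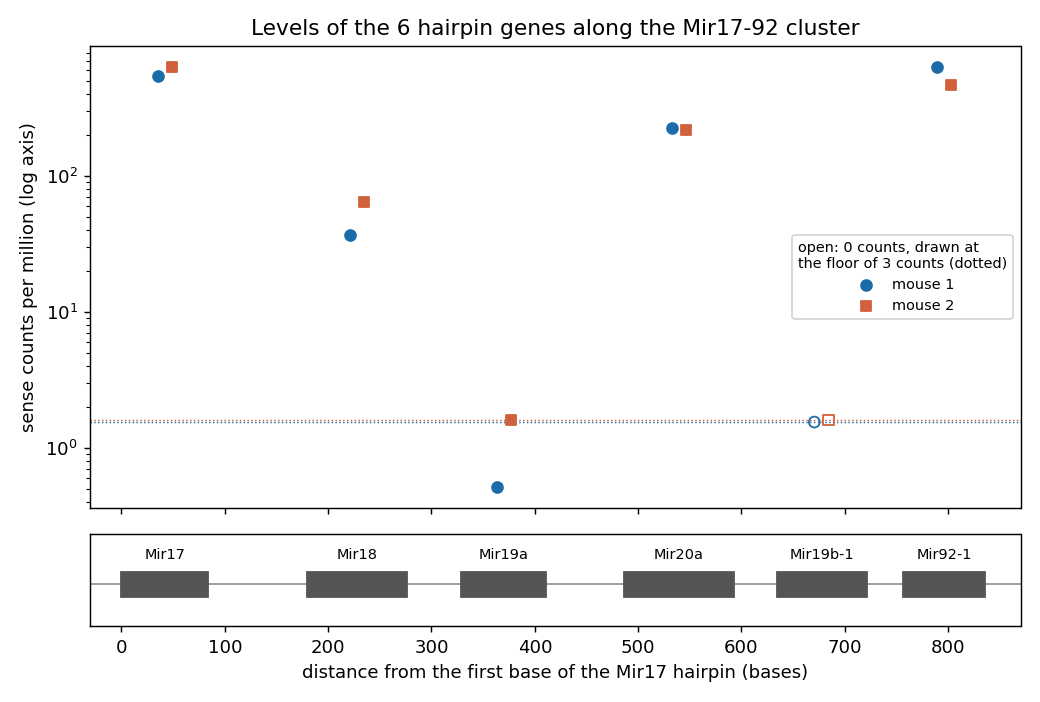
Levels of the 6 hairpin genes in sense CPM (log axis) against the distance from the first base of the Mir17 hairpin, 1 point per mouse, with the hairpins drawn to scale underneath. Mir17 and Mir92-1 at the ends of the cluster stand at 463 to 630 CPM, Mir20a at 217 and 224 CPM and Mir18 at 36.8 and 64.4 CPM, while Mir19a has 1 and 3 counts and Mir19b-1 has 0 counts and is drawn open at the floor (dotted).

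Within a library, a ratio of 2 members does not depend on how the library is scaled. Mir17 had 2.41 times the counts of Mir20a in mouse 1 (95% interval 2.16 to 2.71) and 2.89 times in mouse 2 (2.58 to 3.25). It had 14.7 times the counts of Mir18 in mouse 1 (11.6 to 19.0) and 9.73 times in mouse 2 (8.06 to 11.8). Against Mir19a the ratio was 1045 (187 to 41314) in mouse 1 and 389 (133 to 1891) in mouse 2, intervals that are wide because Mir19a had so few counts. Against the floor for Mir19b-1, the counts of Mir17 were at least 348-fold higher in mouse 1 and at least 389-fold higher in mouse 2.

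The make-up of the cluster's counts differed between the mice in Mir17, Mir18 and Mir92-1, and was close to equal in Mir20a. Mir17 held 37.8% of the cluster's counts in mouse 1 (95% Clopper-Pearson interval 36.0 to 39.6) and 45.7% in mouse 2 (43.7 to 47.6), a mean of 41.7% ± 5.58. Mir92-1 held 44.0% (42.1 to 45.9) and 33.7% (31.9 to 35.6), a mean of 38.9% ± 7.24. For both genes the counting intervals of the mice do not overlap, in opposite directions. Mir20a held 15.6% and 15.8%, a mean of 15.7% ± 0.102. Mir18 held 2.57% (2.01 to 3.23) in mouse 1 and 4.69% (3.90 to 5.58) in mouse 2. Mir19a held 0.0361% and 0.117%, and for Mir19b-1 the floor allows up to 0.108% in mouse 1 and 0.117% in mouse 2.

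**Figure D2:**
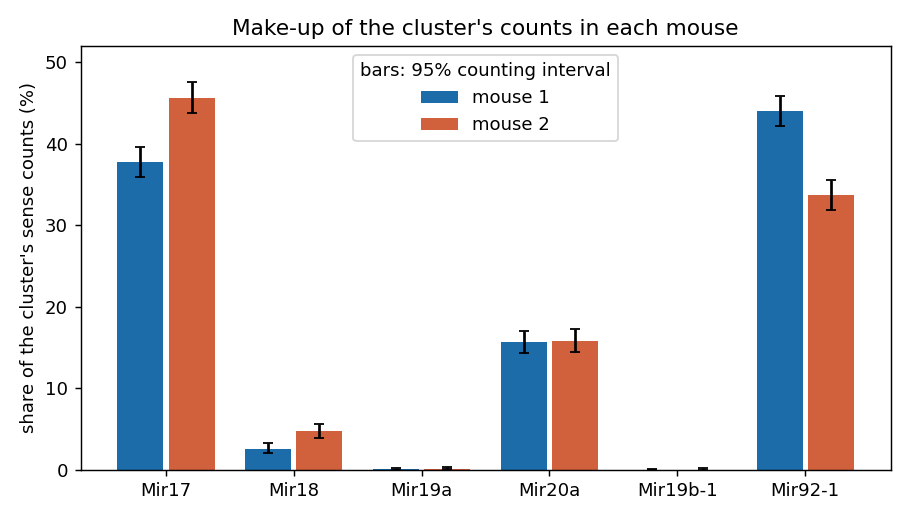
Share of the cluster's sense counts held by each member in each mouse, with 95% Clopper-Pearson intervals that cover counting error only. Mir17 and Mir92-1 change places as the largest share (37.8% and 44.0% in mouse 1, 45.7% and 33.7% in mouse 2), Mir20a holds 15.6% and 15.8%, and Mir19a and Mir19b-1 are close to 0.

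Reads that fit several places in the genome entered no gene count, so it matters which members share sequence with other hairpins. The guides of Mir17, Mir18, Mir19a and Mir20a occur in no other RefSeq hairpin. The longest run that these 4 hairpins have in common with another one is 13 bases for Mir17 and Mir19a, 17 for Mir18 and 17 for Mir20a. Mir19b-1 shares a run of 25 bases with Mir19b-2, and Mir92-1 shares 22 bases with Mir92-2. Both pairs are shown with the shared run in capitals, since a read that lies wholly within it cannot be given to 1 gene.
Mir19b-1: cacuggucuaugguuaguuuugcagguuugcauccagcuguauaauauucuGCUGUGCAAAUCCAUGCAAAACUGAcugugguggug
Mir19b-2: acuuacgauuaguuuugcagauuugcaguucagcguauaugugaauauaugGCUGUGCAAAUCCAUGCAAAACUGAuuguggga
Mir92-1: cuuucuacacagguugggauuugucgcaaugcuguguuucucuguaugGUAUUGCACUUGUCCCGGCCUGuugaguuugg
Mir92-2: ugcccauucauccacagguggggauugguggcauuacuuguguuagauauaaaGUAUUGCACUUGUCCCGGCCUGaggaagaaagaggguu

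In both pairs 1 further base at the 3′ end of the guide makes the sequence unique among RefSeq hairpins. At the 5′ end Mir19b-1 needs 3 further bases and Mir92-1 needs 2. Of the members with a shared guide, Mir92-1 had 1217 and 863 counts and Mir19b-1 had none. Mir19a, whose guide is not shared, had 1 and 3 counts. Among all genes of the table with a RefSeq mature sequence, 39 of 95 genes with a mature sequence found in another hairpin reached 10 CPM in both mice (41.1%), against 237 of 923 other genes (25.7%). No counts at all were found for 41 of the 95 and for 350 of the 923, a somewhat larger part of the genes with a shared sequence. The guide of Mir19a has the lowest GC content of the 6, 34.8%, that of Mir92-1 the highest, 57.1%, and those of Mir20a and Mir19b-1 the same, 39.1%. Whether shared sequence or base composition set the counts of the miR-19 genes was not tested.

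Mouse has paralogous groups of the cluster on chromosome X (Mir106a, Mir18b, Mir20b, Mir19b-2, Mir92-2 and Mir363, minus strand, 52741693 to 52742567) and on chromosome 5 (Mir106b, Mir93 and Mir25, minus strand, 138165321 to 138165818). The Mir17-92 sum of 1403 ± 43.2 CPM lay far above that of the X-linked group, which had 63 and 47 counts (28.9 ± 5.25 CPM), and below that of the chromosome 5 group (1911 and 1698 CPM, mean 1804 ± 151), in both mice. In the X-linked group only Mir92-2 reached 10 CPM in both mice, with 32 and 30 counts. For the pair with the same guide, Mir92-1 had 38.0 times the counts of Mir92-2 in mouse 1 (26.8 to 55.9) and 28.8 times in mouse 2 (20.0 to 42.9). Mir19b-2, like Mir19b-1, had no count in either mouse.

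Counts do not tell hairpin arms apart, so each gene is placed by its guide's seed, whichever arm its reads came from. By gene, the cluster held the smaller part of the counts in the miR-17 and miR-92 families and nearly all in the miR-18 family. The 7 genes with the miR-17 seed summed to 2568 ± 95.6 CPM, of which Mir17 and Mir20a held 29.0% in mouse 1 (27.8 to 30.3) and 33.7% in mouse 2 (32.4 to 35.1). Mir93, of the chromosome 5 group, was the highest of them at 1380 ± 156 CPM, with 2.75 times the counts of Mir17 in mouse 1 (2.56 to 2.96) and 2.03 times in mouse 2 (1.89 to 2.18). Mir106b stood between Mir17 and Mir20a at 373 ± 7.0 CPM, Mir20b at 6.28 ± 3.57 CPM and Mir106a at 3.71 ± 1.58 CPM. The remaining gene, Mir6383, had no counts.

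The 7 genes with the miR-92 seed summed to 5547 ± 680 CPM, and Mir92-1 held 10.5% of them in mouse 1 (9.91 to 11.0) and 9.14% in mouse 2 (8.57 to 9.74). These shares cover counted reads only: a read of the exact miR-92a-3p guide fits both Mir92-1 and Mir92-2 and could enter neither, whereas the guide of Mir92b differs, and the number of such reads is not known. Mir92b (chromosome 3), known from neural progenitors, stood at 5311 and 4512 CPM, with 8.42 times the counts of Mir92-1 in mouse 1 (7.94 to 8.95) and 9.75 times in mouse 2 (9.08 to 10.5). Mir25 stood at 50.3 ± 2.11 CPM, Mir32 at 19.3 ± 8.31 CPM and Mir363 at 2.08 ± 2.18 CPM, and Mir367 had no counts. In the miR-18 family Mir18 had 71 and 120 counts and Mir18b 2 and 0, so that Mir18 held 97.3% in mouse 1 and 100% in mouse 2. The 3 miR-19 genes had 1 and 3 counts in all, those of Mir19a, so in counted reads the miR-19 seed was the only one of the 4 at or under the floor in both mice. A read of the exact miR-19b-3p guide fits both Mir19b-1 and Mir19b-2 and could likewise enter neither.

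**Figure D3:**
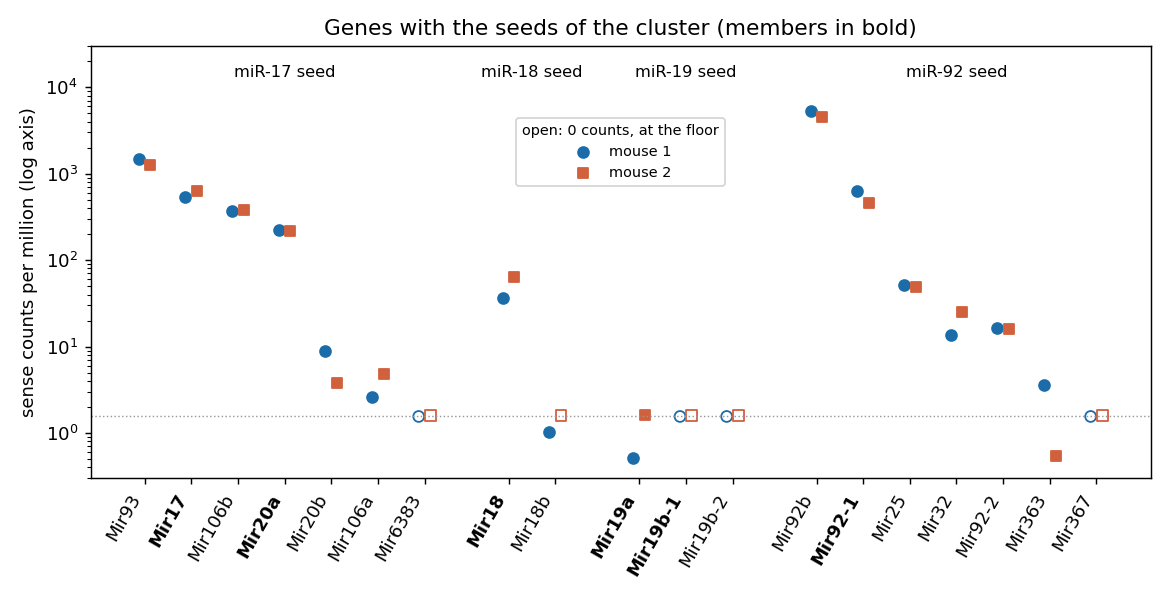
Sense CPM (log axis) in each mouse for all genes whose guide has a seed of the cluster, ordered by mean within each seed family, with members in bold and genes without counts drawn open at the floor. Mir93 (1380 CPM on average) and Mir92b (4912 CPM) stand above the members in their families, and Mir18 above Mir18b.

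Mir17-92 was set beside the other groups of at least 3 annotated hairpins on 1 strand with gaps of at most 1000 bases and a highest member of at least 10 CPM. Members at or under the floor were set to it, a choice made after the data were seen, since otherwise Mir17-92 itself would drop out. The range from the floor to the highest member, Mir17, was 369-fold. Of the 17 other groups 6 had a wider range, and their median was 37.3-fold, from 1.74-fold to 5792-fold. With gaps of up to 10000 bases there were 16 other groups, of which 5 had a wider range, with a median of 79.6-fold and a highest range of 31628-fold. Of the 17 other groups with gaps of at most 1000 bases, 8 also had their lowest member at or under the floor. Of the 16 with gaps of up to 10000 bases, 9 did. The chromosome 5 paralogs spanned 27.4-fold, from Mir25 to Mir93. The upper end of a group limits how wide such a range can be, so these values describe the libraries and are not a test.

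**Figure D4:**
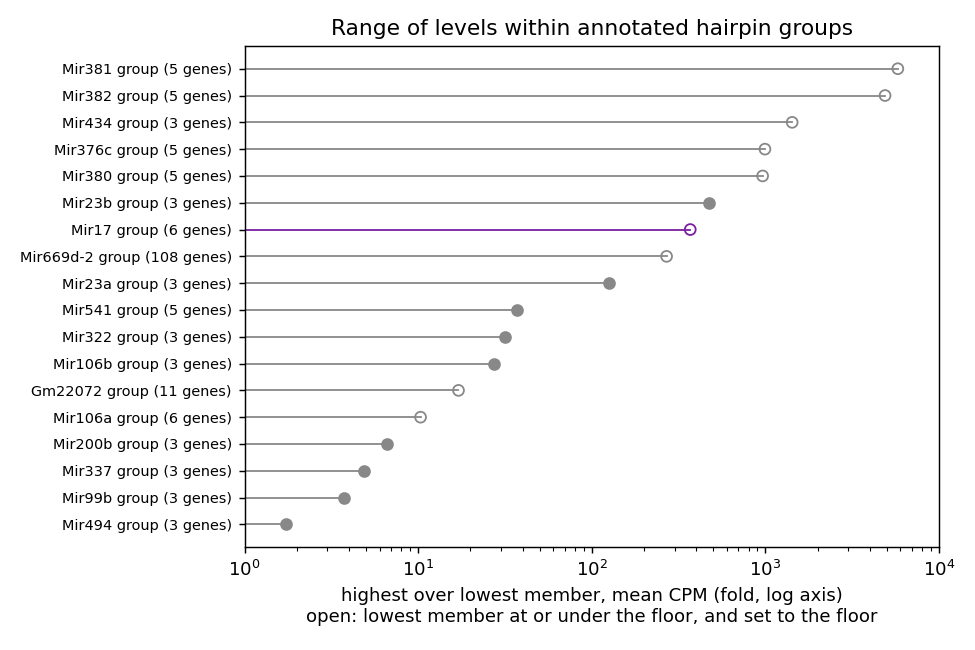
Highest over lowest mean CPM within each group of neighbouring hairpins (log axis), named by its first gene, with open points where the lowest member was at or under the floor and set to it. The Mir17 group (369-fold) lies below 6 of the other 17 groups and above the Mir106b group (27.4-fold).

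Genes nearest in level over the 2 mice were named by the Euclidean distance of log2(CPM + 1). They were Mir351 (499 and 536 CPM, distance 0.25) and Mir501 (440 and 646 CPM, 0.30) for Mir17, and Mir666 (597 and 467 CPM, 0.08) and Mir1981 (704 and 494 CPM, 0.18) for Mir92-1. For Mir20a they were Mir664 (205 and 238 CPM, 0.18) and Mir488 (207 and 248 CPM, 0.22), and for Mir18 they were Mir7-1 (38.3 and 58.5 CPM, 0.15) and Mir493 (46.6 and 59.0 CPM, 0.36). With 2 mice such a likeness describes level only.

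Between the mice, Mir18 was higher in mouse 2 and Mir92-1 in mouse 1, by less than 2-fold. For each of the 324 genes with a mean of at least 10 CPM, a two-sided exact binomial test set the counts of the mice against their TMM-scaled totals, with Benjamini-Hochberg adjustment across these genes. The test compares 2 libraries for counting error only. At an adjusted p under 0.05 and at least 2-fold, none of the 4 members tested was called, against 63 of the 324 genes (19.4%), 46 higher in mouse 2 and 17 in mouse 1. With the linear hairpin GC trend alone removed from the ratios, the split was 41 and 19. With the trend and its mean removed, it was 38 and 29. Under both settings again no member was called. Without the fold limit, 3 of the 4 members passed at an adjusted p under 0.05, against 74.7% of all genes tested, and 3 passed at an unadjusted p under 0.05, against 75.9%, so that passing this limit was the rule in these libraries. With the GC trend alone removed 3 of the 4 again passed at an adjusted p under 0.05, but they were Mir18, Mir92-1 and Mir20a (adjusted p = 0.0408 by the exact test) in place of Mir17 (adjusted p = 0.670 by the exact test).

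Mir18 had the widest difference of the 4, a log2 ratio of mouse 2 over mouse 1 of 0.76 (95% counting interval 0.32 to 1.20, adjusted p = 0.000623 by the exact test), or 1.69-fold. Mir92-1 had a log2 ratio of -0.49 (-0.62 to -0.37, adjusted p = 2.59e-14 by the exact test), or 1.41-fold higher in mouse 1. Mir17 had 0.16 (0.04 to 0.28, adjusted p = 0.0122 by the exact test), and with the GC trend and its mean removed the value was -0.073, so it has no settled direction. Mir20a had -0.10 (-0.30 to 0.10, adjusted p = 0.386 by the exact test).

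Over all 324 genes the median absolute log2 ratio was 0.53, and 107 genes were further apart than Mir18, 175 further than Mir92-1, 272 further than Mir17 and 289 further than Mir20a. The edgeR common coefficient of variation, which leaves out counting error, was 0.399. By this measure the members lay within the usual spread of these 2 libraries. The sum of the 6 members had a log2 ratio of -0.11 (-0.19 to -0.03), and the median of the 4 tested members was 0.03, beside -0.00376 over all genes tested.

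Summed levels of several marker lists also stood apart between the mice. The 3 erythroid genes, all at 10 CPM or more in both mice, summed to 742 CPM in mouse 1, beside 153 CPM in mouse 2, the direction of Mir92-1. The endothelial and mural list, with 3 of 4 genes at 10 CPM or more and Mir126b at 0, summed to 15865 and 31844 CPM, the direction of Mir18. The oligodendrocyte list, with 2 of 3 genes at 10 CPM or more and none at 0, summed to 2756 and 5128 CPM, likewise the direction of Mir18. The microglia and leukocyte list, with 3 of the 4 genes found in the table at 10 CPM or more, summed to 1640 and 1472 CPM. Most of this sum was Mir150 (mean 1397 CPM, log2 ratio -0.33). Of the other 2 genes at 10 CPM or more, Mir142 was higher in mouse 2 (log2 ratio 1.46) and Mir155 was close to equal (0.06). Mir18 and Mir92-1 differed in opposite directions, so a list in the direction of 1 of them was opposite to the other. The part of these lists in the differences of Mir18 and Mir92-1 was not tested.

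**Figure D5:**
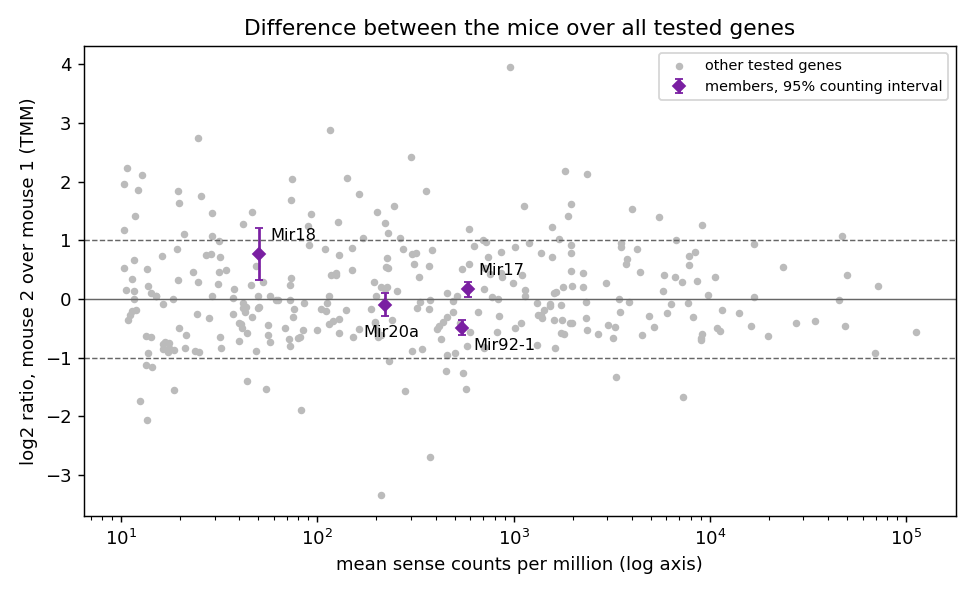
Log2 ratio of mouse 2 over mouse 1 (TMM library sizes) against the mean level for the 324 tested genes (grey), with the 4 tested members and their 95% counting intervals, and dashed lines at 2-fold. The members lie between -0.49 (Mir92-1) and 0.76 (Mir18), inside the 2-fold lines that 63 genes pass with the exact test.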

How the data were processed

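MicroRNA-seq libraries (short RNA under 30 bases, per the labels) of 2 mice were used, each a separate table. The authors' deposited values are whole-number read counts per gene, not normalized, on mm10 with GENCODE M21 per the README notes deposited with them. The aligner, the counter and adapter trimming are not given in the sources used here. Of 3 unnamed count columns the second was read as sense counts, since it holds nearly all assigned reads. Lines that name no gene stayed out of all totals: unmapped reads (32.1% and 27.3% of 7082096 and 6253481 reads in mouse 1 and mouse 2), reads at several places (34.6% and 37.2%) and reads in no gene (6.10% and 5.63%). The counts do not tell the arms of a hairpin apart, and whether reads of CAST alleles were lost was not tested.

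CPM was computed over sense counts. All 2202 genes matched M21 by identifier. TMM sizes and the common dispersion came from edgeR 4.0.16, size factors of an alternative from DESeq2 1.42.0, and exact binomial tests and 95% Clopper-Pearson intervals from scipy 1.17.1. The test was checked on simulated counts that held counting error only. These libraries differ by more than that, so the check does not cover false calls from their wider spread. A quasi-likelihood test could not be fitted with 1 group of 2 mice. P-values measure counting error between 2 libraries. The members, the gene lists and the tests were chosen with earlier results of these data known. Named by rule were the members, their paralogs, the genes with a member's seed and the 2 genes nearest in level to each detected member. Host and mature sequences came from M21 and RefSeq GRCm38.p6. Alternatives changed the scaling, the count column, the filter, the GC correction, the gap between hairpins of a group and the mice used.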

Additional observations from a re-analysis of the deposited data

How the results depend on the processing

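Results kept their direction, their side of the 2-fold threshold and, for values with no test, stayed within 1 SD, with the following exceptions. At a limit of 100 CPM in both mice, 3 members were detected in place of 4, without Mir18. The summed level of the cluster was 399.9 CPM when scaled to all reads and 1516 CPM in the unstranded column, whose total over genes is smaller. Counted per hairpin base, an alternative chosen after seeing the data, the share of Mir20a was 12.6%. With the GC trend and its mean removed, also chosen after seeing the data, the log2 ratio of Mir17 was -0.073 (adjusted p = 0.284 by the exact test), beside 0.03 to 0.21 under its other alternatives; with the GC trend alone removed it was 0.03 (adjusted p = 0.670 by the exact test). For Mir20a the value was then -0.32 (adjusted p = 0.00225 by the exact test), beside -0.22 to -0.05 otherwise, and with the trend alone removed it was -0.22 (adjusted p = 0.0408 by the exact test), with no alternative at 2-fold. The causes were not tested. Leaving out 1 mouse gave 1372 to 1433.5 CPM for the sum and 389-fold to 406-fold for the range. With 2 mice, the value of either mouse always lies within 1 SD of their mean. Leaving out 1 mouse is therefore no check of the sum or of the shares. Genes called ranged from 60 to 71. No paired analysis was possible because there is 1 group. For Mir19a and Mir19b-1, no level could be told from the floor at this depth. For Mir19b-1, reads that also fit Mir19b-2 would enter no count at any depth.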
